A study of Homo sapiens with 6 samples.

Results

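The SLC25 family is the set of carrier proteins that move metabolites, nucleotides, ions and cofactors through the inner mitochondrial membrane. Its members were taken as every protein-coding gene with a symbol starting with SLC25A, together with UCP1, UCP2, UCP3, MTCH1 and MTCH2, and 53 of the 40295 genes in the deposited table met this rule. They were measured by RNA-seq in HDQ-P1 cells, an established human breast carcinoma line used to study readthrough of premature termination codons. The 2 groups were 3 libraries of cells kept for 48 h with 1 μM Y-320, a phenylpyrazoleanilide that enhances the readthrough activity of aminoglycosides, and 3 libraries of untreated cells, for which no solvent control is mentioned. No aminoglycoside was named for either group. The labels do not say that the libraries of a group came from separate cultures, so the p-values measure only the spread between these libraries.

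A carrier of this family is built from 3 repeats of a pair of membrane helices, and it alternates between a state open to the cytosol and a state open to the matrix, usually exchanging one substrate for another. ADP/ATP and phosphate carriers feed ATP synthase, di- and tricarboxylate and aspartate/glutamate carriers link the citric acid cycle with cytosolic metabolism, and others bring in the cofactors that matrix enzymes need. A few relatives lie in the outer membrane or in peroxisomes. The genes were grouped here by the known substrates of their products.

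Each library held 21045401 to 22740535 estimated counts. Levels are given in CPM, the count set against the size of its library after TMM scaling for composition, and a single count was worth 0.0438 to 0.0480 CPM. The labelled cell type was checked with marker genes. The epithelial markers EPCAM, KRT8, KRT18, KRT19, CDH1 and CLDN4 were abundant in all libraries, from 176 CPM for CLDN4 to 2866 CPM for KRT8. MYH7 was at 0 counts in every library, and CD3E, CD14, PTPRC, VWF, DES, ACTA1 and CIDEA did not exceed 1.18 CPM. Of the endothelial genes PECAM1 was at 3.98 ± 0.33 CPM without and 9.26 ± 2.10 CPM with Y-320, and CDH5 at 13.6 ± 1.01 and 5.54 ± 0.06 CPM (SD, n = 3). Of the epithelial markers, KRT8, KRT18, KRT19 and CDH1 fell by 1.02, 0.86, 0.62 and 0.11 on the log2 scale. EPCAM and CLDN4 rose by 0.38 and 0.23. The part of these genes in the results below was not tested. In RNA from whole cultures, fewer cells of a type and less RNA per cell cannot be told apart.

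To show where sequence motifs lie in the promoters of carriers that moved, 4 windows of RefSeq promoter sequence are printed first (build GRCh38.p14, from 250 bases before to 50 bases after the start of transcription, in the direction of the gene, 5′ to 3′). They were chosen after the matches were seen. Capitals mark matches to TGACGTCA, the cAMP response element, to CACGTG, the E-box, and to the binding motif of NRF1. The window of SLC25A25, an ATP-Mg/phosphate carrier, is 1 of 3 that RefSeq gives for the gene, lies at chr9:128098257-128098556 on the plus strand and has its match 200 bases before the start. The window of SLC25A36, a pyrimidine nucleotide carrier, lies at chr3:140941586-140941885 on the plus strand, with matches 143 and 117 bases before the start. The window of SLC25A51, the carrier of NAD+, lies at chr9:37904078-37904377 on the minus strand, with the E-box 59 bases before the start. The window of SLC25A13, an aspartate/glutamate carrier, lies at chr7:96322049-96322348 on the minus strand, with the E-box 154 bases before the start. The first 3 genes rose with Y-320 and SLC25A13 fell, as described further on.
SLC25A25: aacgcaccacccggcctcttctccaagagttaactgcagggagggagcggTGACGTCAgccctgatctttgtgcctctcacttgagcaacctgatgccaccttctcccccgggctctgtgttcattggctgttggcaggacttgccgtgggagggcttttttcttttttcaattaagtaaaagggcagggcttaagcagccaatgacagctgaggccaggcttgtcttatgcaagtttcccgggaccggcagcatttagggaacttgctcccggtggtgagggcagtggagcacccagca
SLC25A36: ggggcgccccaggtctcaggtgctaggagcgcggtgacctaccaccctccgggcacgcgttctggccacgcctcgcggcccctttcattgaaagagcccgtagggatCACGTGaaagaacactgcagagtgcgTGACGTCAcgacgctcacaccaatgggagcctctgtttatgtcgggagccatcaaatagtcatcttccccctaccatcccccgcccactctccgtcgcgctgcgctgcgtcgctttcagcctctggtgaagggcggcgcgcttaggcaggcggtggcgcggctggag
SLC25A51: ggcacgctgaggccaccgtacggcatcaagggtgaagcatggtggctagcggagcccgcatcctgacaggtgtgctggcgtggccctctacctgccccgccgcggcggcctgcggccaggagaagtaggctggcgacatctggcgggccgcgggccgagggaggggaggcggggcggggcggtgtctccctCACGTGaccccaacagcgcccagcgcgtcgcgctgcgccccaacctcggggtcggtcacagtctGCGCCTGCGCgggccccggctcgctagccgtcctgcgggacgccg
SLC25A13: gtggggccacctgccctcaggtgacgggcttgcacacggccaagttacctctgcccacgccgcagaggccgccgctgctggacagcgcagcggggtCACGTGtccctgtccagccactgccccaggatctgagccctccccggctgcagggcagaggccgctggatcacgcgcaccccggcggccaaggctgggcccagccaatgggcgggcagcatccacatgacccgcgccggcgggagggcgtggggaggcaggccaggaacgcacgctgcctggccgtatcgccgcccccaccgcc

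Y-320 moved many carriers by small amounts, in both directions. Of the 53 members, 45 had enough counts to be tested, and by the edgeR quasi-likelihood test, adjusted by Benjamini and Hochberg over 16580 genes (threshold 0.05), 15 were higher with Y-320, 14 were lower and 16 did not pass. This is 64.4% of the members tested, where 51.5% of all genes tested passed. DESeq2 called 9 of the 45 higher and 11 lower, beside 3405 higher and 3278 lower of all 16580 genes. In the edgeR test higher members made up 33.3%, beside 26.2% of all genes, and lower members 31.1%, beside 25.4%. The median log2 fold change of the members was 0.00, as it was over all genes, and their median absolute change was 0.19 beside 0.21 for all genes. Among genes that passed, the median absolute change was 0.22 for the members and 0.33 for all genes. The members ran from -0.67 to 0.70, so that no member changed by 1 log2 unit, while 5.02% of all genes passed with a change of that size. A change of at least 0.5 log2 units past the threshold was found for 4 members, 8.89% of those tested, beside 15.7% of all genes. The groups did not overlap for 64.4% of the members, 16 being above and 13 below the untreated range, beside 59.2% of all genes. Against a minimum fold of 1.2 (glmTreat), 3 members were higher and 4 lower, while 19.9% of all genes passed. These 7 were SLC25A45, SLC25A25 and SLC25A32 among the higher and UCP2, SLC25A35, SLC25A30 and MTCH2 among the lower, and the same 7 passed in every other fit that was made.

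**Figure D1:**
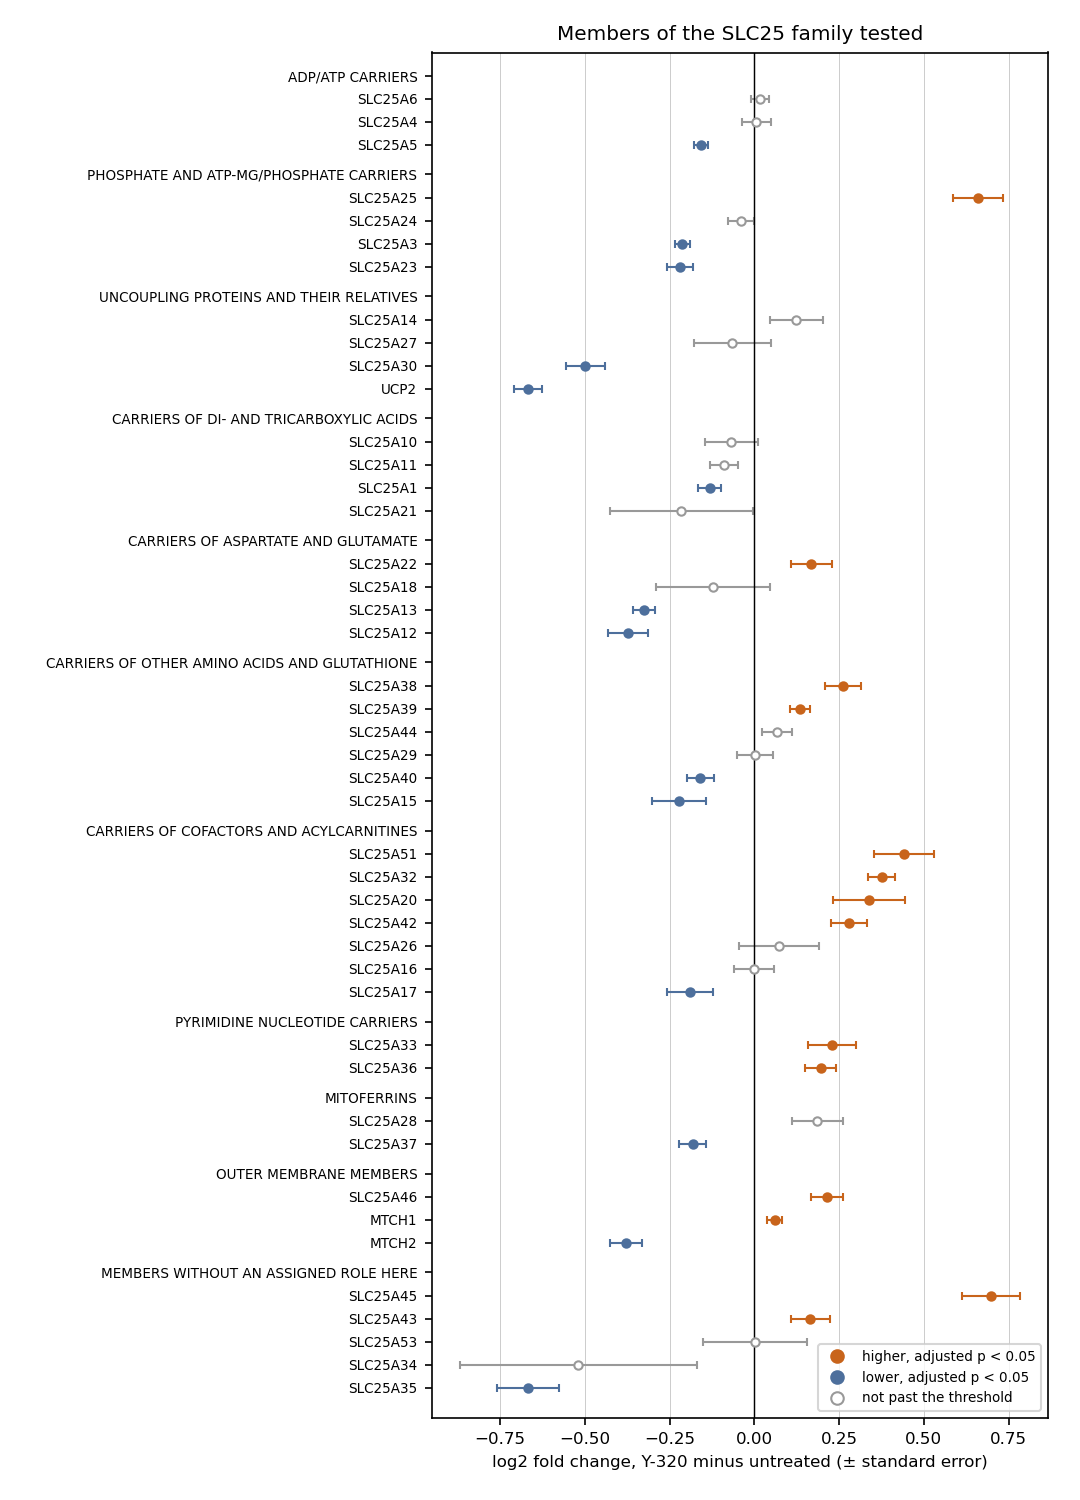
Log2 fold change of 44 of the 45 members tested, Y-320 minus untreated, grouped by role, with the standard error as a bar. Filled orange points were higher and filled blue points lower at an adjusted p under 0.05, and open grey points did not pass. Values run from -0.67 for UCP2 and SLC25A35 to 0.70 for SLC25A45.

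Among the calls, 8 of 29 were lost in at least 1 of the 6 fits made on 5 libraries. MTCH1 was lost in 5 of these fits (adjusted p, edgeR, 0.0592 to 0.124). SLC25A15, SLC25A17, SLC25A20, SLC25A22, SLC25A33 and SLC25A43 were each lost in 4, with adjusted p between 0.0557 and 0.151, and each kept its direction. Libraries of both groups were among those whose removal lost a call. Leaving out a Y-320 library lost 7, 7 and 3 calls for replicates 1, 2 and 3, and leaving out an untreated library lost 5, 6 and 5. The other 21 calls held in all 6 fits.

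In level, the carriers spanned a wide range. To compare genes, CPM was divided by the median length of a gene's transcripts in kilobases. On this scale the untreated cells were led by SLC25A5 at 331, SLC25A6 at 323, SLC25A3 at 273, MTCH1 at 183, SLC25A39 at 139 and SLC25A1 at 82.4, and UCP2 followed at 42.0. SLC25A5 and SLC25A6 were not separate, SLC25A6 being the higher in 1 of the 3 untreated libraries, and with the canonical transcript in place of the median SLC25A3 came sixth. At the lower end, SLC25A53 stood at 0.48 and SLC25A34 at 0.33. Summed over all members, the family made up 2960 ± 22.4 CPM without and 2856 ± 3.91 CPM with Y-320 (SD, n = 3). The treated libraries were all below the untreated ones, but the sum was lower by only 0.05 on the log2 scale. SLC25A6, SLC25A5, SLC25A3 and MTCH1 together held 55.02 ± 0.13% of this sum without Y-320 and 54.4 ± 0.17% with it.

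**Figure D2:**
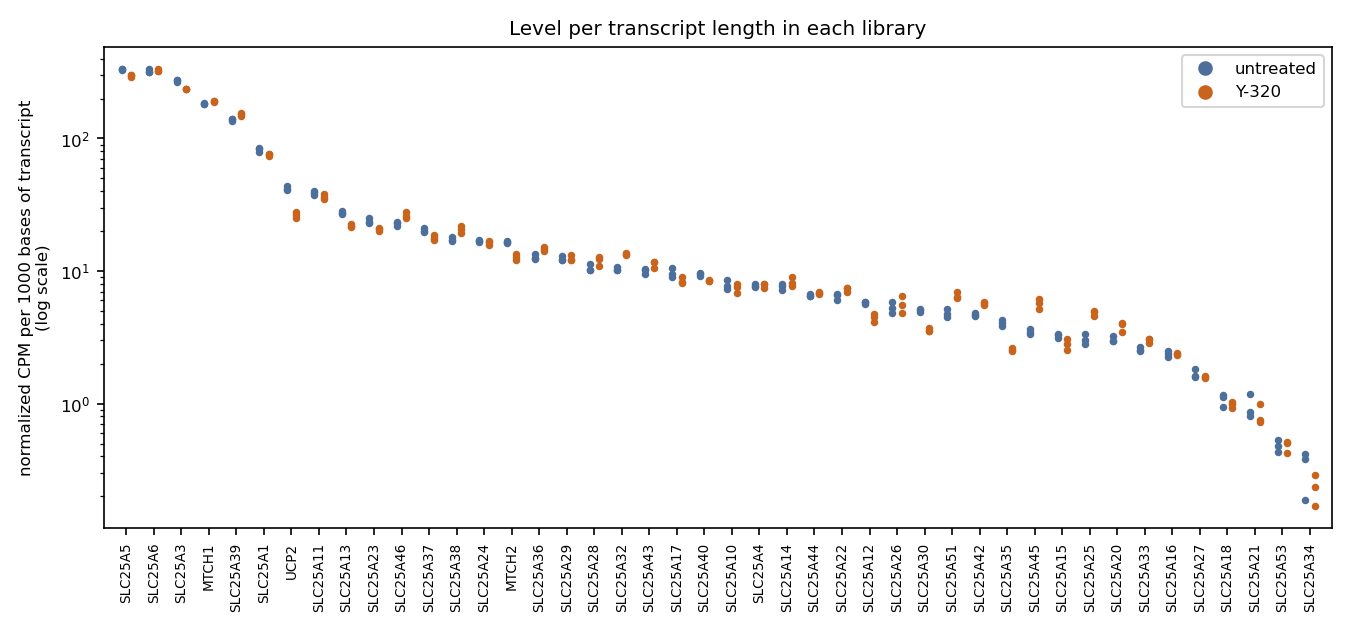
Level of 44 of the 45 members tested in each library, as normalized CPM per kilobase of transcript on a log axis, ordered by the untreated mean. Blue points are the 3 untreated and orange points the 3 Y-320 libraries. The first 6 genes, from SLC25A5 to SLC25A1, lie apart from the rest.

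The other 8 members were too low to be tested. They were SLC25A31, the ADP/ATP carrier of germ cells, SLC25A41, UCP1, the uncoupling protein of brown fat, UCP3, SLC25A2, SLC25A52, SLC25A47 and SLC25A48. None exceeded 9.6 estimated counts in a library. SLC25A31 and SLC25A47 were at 0 in all untreated libraries, which at 3 counts allows up to 0.136 to 0.144 CPM in these libraries, for counting error only. SLC25A48 had 4, 2 and 0 counts without and 7, 5 and 5 counts with Y-320, which is too few to read a change from.

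ADP/ATP carriers export ATP from the matrix in exchange for ADP, and SLC25A5 and SLC25A6 were the most abundant members per length. SLC25A5 (ANT2) fell while SLC25A6 (ANT3) and SLC25A4 (ANT1) did not pass. SLC25A5 measured 430.6, 434.5 and 433.5 CPM in the untreated libraries and 383.1, 390.8 and 390.5 CPM in the Y-320 libraries. All treated values lay under all untreated ones. The change was -0.16 log2 units (SE 0.02, edgeR adjusted p = 0.000125). SLC25A6 stood at 469 ± 13.5 CPM and 474 ± 10.5 CPM and SLC25A4 at 34.3 ± 1.07 and 34.5 ± 1.29 CPM (SD, n = 3), with overlapping groups. Per length, the share of SLC25A5 among the ADP/ATP carriers went from 50.03 ± 0.66% to 47.0 ± 0.79%, and that of SLC25A6 from 48.8 ± 0.64% to 51.7 ± 0.84%, so SLC25A6 was the larger of the pair in every treated library. Of the 31-base words in SLC25A5 transcripts 29.4% also occur in other genes, and reads in those stretches may be assigned to either.

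SLC25A3, the phosphate carrier, supplies the phosphate that ATP synthase uses. It measured 378.1, 374.8 and 368.1 CPM in untreated libraries and 321.0, 322.8 and 323.8 CPM with Y-320. The groups did not overlap, and the treated libraries lay close together. SLC25A3 fell by 0.21 on the log2 scale (SE 0.02, edgeR adjusted p = 1.92e-05).

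The ATP-Mg/phosphate carriers SLC25A23, SLC25A24 and SLC25A25 adjust the adenine nucleotide content of the matrix and are activated by calcium. SLC25A25 rose (ENSG00000148339, chr9:128068201-128109245, plus strand, 11 exons, hg38), with 9.83, 10.6 and 11.6 CPM in untreated libraries and 17.3, 16.0 and 17.1 CPM with Y-320. The lowest treated library was well above the highest untreated one. Its log2 fold change was 0.66 (SE 0.07, edgeR adjusted p = 3.23e-05) and stayed between 0.60 and 0.72 when a library was left out. SLC25A23, at 58.6 ± 2.26 CPM without Y-320, fell by 0.22 on the log2 scale (SE 0.04, edgeR adjusted p = 0.000902). SLC25A24, at 57.3 ± 1.19 and 55.8 ± 2.15 CPM, did not pass. An antisense gene, SLC25A25-AS1, holds 10.5% of the words of SLC25A25, and the sources used here do not say whether the counting used strand.

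**Figure D3:**
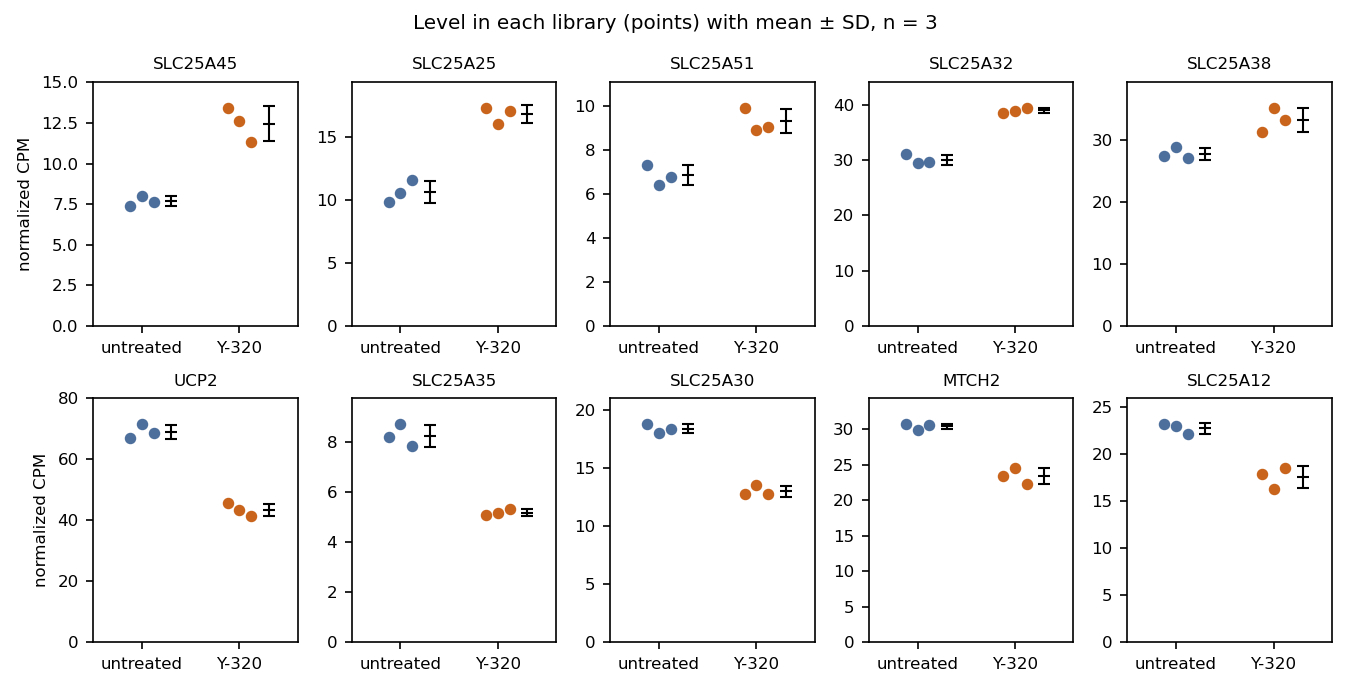
Normalized CPM of 10 members in each library, from 0, with the mean ± SD of the 3 libraries of a group. The upper row shows members that were higher with Y-320 and the lower row members that were lower. The 10 were picked from the members past the threshold, so their separate groups are not a result about the family. SLC25A20 and SLC25A42, which rose more than SLC25A38, are not drawn.

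The uncoupling proteins are relatives that dissipate or modulate the proton gradient or exchange small metabolites. UCP2 exports C4 metabolites from the matrix, and it was well detected here, where UCP1 and UCP3 were too low to test. UCP2 (ENSG00000175567, chr11:73974672-73982843, minus strand, 8 exons) measured 67.0, 71.5 and 68.7 CPM without Y-320 and 45.6, 43.2 and 41.5 CPM with it. The groups were far apart relative to their spread. UCP2 fell by 0.67 on the log2 scale (SE 0.04, edgeR adjusted p = 4.87e-07), with a range of -0.70 to -0.63 when a library was left out. SLC25A30 (KMCP1) had 18.8, 18.0 and 18.4 CPM and 12.7, 13.6 and 12.7 CPM, also without overlap, and fell by 0.50 (SE 0.06, edgeR adjusted p = 3.90e-05). Its value, -0.498 before rounding, lay just outside the 0.5 used to choose genes for full description. SLC25A14 (UCP5), at 11.6 ± 0.61 and 12.6 ± 1.00 CPM, and SLC25A27 (UCP4), at 4.55 ± 0.34 and 4.35 ± 0.07 CPM, did not pass. The genes of this group together measured 104 ± 2.47 CPM without and 73.8 ± 1.503 CPM with Y-320.

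Of 4 carriers of di- and tricarboxylic acids tested, 1 was lower (25.0%, beside 25.4% of all genes) and 3 did not pass. SLC25A1, which exports citrate for lipid synthesis, measured 121.5, 126.9 and 130.1 CPM and, with Y-320, 112.0, 117.7 and 115.9 CPM. The treated values lay under the untreated ones by a small margin, and the change was -0.13 (SE 0.03, edgeR adjusted p = 0.00750). SLC25A11, the oxoglutarate carrier of the malate-aspartate shuttle, was at 51.2 ± 1.65 and 48.2 ± 1.79 CPM (adjusted p, edgeR, 0.0948). SLC25A10, the dicarboxylate carrier, and SLC25A21, the oxodicarboxylate carrier, did not pass either, with log2 fold changes of -0.07 and -0.21. The words of SLC25A10 are shared to 43.3% with ENSG00000262660, a gene that overlaps it, which had 0 counts in every library, and those of SLC25A21 to 29.7% with PAX9.

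Both aspartate/glutamate carriers fell. SLC25A12 (aralar) and SLC25A13 (citrin) export aspartate from the matrix in exchange for glutamate and are the calcium-regulated step of the malate-aspartate shuttle. SLC25A13 measured 89.2, 87.5 and 85.1 CPM and, with Y-320, 69.2, 68.2 and 71.4 CPM, a change of -0.33 (SE 0.03, edgeR adjusted p = 1.39e-05). SLC25A12, lower in level, measured 23.2, 23.0 and 22.1 CPM and, with Y-320, 17.9, 16.3 and 18.5 CPM, a change of -0.37 (SE 0.06, edgeR adjusted p = 0.000360). Neither gene's groups overlapped. Of the glutamate carriers, SLC25A22 rose by 0.17 (SE 0.06, edgeR adjusted p = 0.0403), one of the calls lost without some libraries, and SLC25A18, at 2.28 ± 0.25 and 2.09 ± 0.11 CPM, did not pass.

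Among carriers of other amino acids and glutathione, 2 rose and 2 fell of 6 tested. This is 33.3% in each direction, beside 26.2% higher and 25.4% lower of all genes. SLC25A38, which brings glycine into the matrix for haem synthesis, measured 27.4, 28.9 and 27.1 CPM and, with Y-320, 31.3, 35.2 and 33.3 CPM. The groups did not overlap and the change was 0.26 (SE 0.05, edgeR adjusted p = 0.00181). SLC25A39, the main carrier of glutathione into mitochondria, measured 216.5, 216.8 and 208.5 CPM and, with Y-320, 240.7, 237.2 and 227.0 CPM, a rise of 0.14 (SE 0.03, edgeR adjusted p = 0.00329). Its relative SLC25A40 went the other way, with 38.6, 36.9 and 39.5 CPM and, with Y-320, 34.7, 34.1 and 34.2 CPM. The groups of both relatives were separate. SLC25A40 fell by 0.16 (SE 0.04, edgeR adjusted p = 0.00656), a call that was lost with DESeq2 (adjusted p = 0.0690). The ornithine carrier SLC25A15 fell by 0.22 (SE 0.08, edgeR adjusted p = 0.0404). SLC25A44, a carrier of branched-chain amino acids, and SLC25A29, a carrier of basic amino acids, did not pass, with changes of 0.07 and 0.00.

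Among carriers of cofactors and acylcarnitines 5 of 8 tested were higher (62.5%, beside 26.2% of all genes) and 1 was lower, with a median log2 fold change of 0.25. SLC25A51 had 7.34, 6.43 and 6.80 CPM without and 9.94, 8.93 and 9.07 CPM with Y-320, a rise of 0.44 (SE 0.09, edgeR adjusted p = 0.00198). SLC25A32, which brings folate into the matrix and serves its supply of FAD, had 31.1, 29.4 and 29.5 CPM and, with Y-320, 38.5, 38.9 and 39.4 CPM, a rise of 0.38 (SE 0.04, edgeR adjusted p = 2.10e-05). The treated libraries of both genes lay above all untreated ones. SLC25A42, a carrier of coenzyme A, rose by 0.28 (SE 0.05, edgeR adjusted p = 0.00140). SLC25A20, the carnitine/acylcarnitine carrier of fatty acid oxidation, rose by 0.34 (SE 0.11, edgeR adjusted p = 0.0220). The member that fell was SLC25A17, the cofactor carrier of peroxisomes, whose groups overlapped in part (change -0.19, SE 0.07, edgeR adjusted p = 0.0403). SLC25A26, the S-adenosylmethionine carrier, and SLC25A16 did not pass. SLC25A32 shares 67.9% of its words with ENSG00000285982, a gene that runs through the same locus, and its counts depend on how reads were split between them. That gene, at 2.81 ± 0.40 and 3.48 ± 0.60 CPM, did not pass. Of the words of SLC25A51, 32.2% also occur in other genes, and 15.4% in SLC25A52, which had at most 3.5 counts in a library.

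Both pyrimidine nucleotide carriers, which supply the matrix with precursors for mitochondrial RNA and DNA, rose. SLC25A36 measured 50.2, 50.9 and 55.4 CPM and, with Y-320, 57.6, 61.9 and 59.8 CPM, a change of 0.20 (SE 0.05, edgeR adjusted p = 0.00449). SLC25A33 measured 9.60, 9.73 and 10.3 CPM and, with Y-320, 11.8, 11.9 and 11.1 CPM, a change of 0.23 (SE 0.07, edgeR adjusted p = 0.0204). Treated and untreated values were separate for both. Of the mitoferrins, which import iron for haem and iron-sulphur clusters, SLC25A37 (mitoferrin-1) fell by 0.18 (SE 0.04, edgeR adjusted p = 0.00286) from 95.1 ± 3.60 to 83.8 ± 3.37 CPM. SLC25A28 (mitoferrin-2), at 14.6 ± 0.99 and 16.6 ± 1.31 CPM, did not pass (adjusted p, edgeR, 0.0640).

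In the outer membrane, MTCH2, an insertase for membrane proteins with a helical anchor, fell and its relative MTCH1 was slightly higher. MTCH2 measured 30.7, 29.9 and 30.5 CPM and, with Y-320, 23.4, 24.5 and 22.3 CPM. The groups were separate, and the change was -0.38 (SE 0.05, edgeR adjusted p = 7.01e-05). MTCH1 measured 358.7, 350.1 and 351.2 CPM and, with Y-320, 367.8, 366.5 and 371.3 CPM, a change of 0.06 (SE 0.02, edgeR adjusted p = 0.0400). This call rested on the processing, since DESeq2 gave an adjusted p of 0.0743 and upper-quartile scaling one of 0.243. SLC25A46, which acts in the fusion and shape of mitochondria, rose by 0.21 (SE 0.05, edgeR adjusted p = 0.00336) from 36.3 ± 1.32 to 42.1 ± 2.05 CPM.

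Of the members given no role here, 2 rose and 1 fell of 5 tested (60.0% called, beside 51.5% of all genes). They included changes at both ends of the family. SLC25A45 (ENSG00000162241, chr11:65375192-65383701, minus strand, 7 exons) measured 7.38, 8.01 and 7.66 CPM without and 13.4, 12.6 and 11.3 CPM with Y-320. The lowest treated value exceeded the highest untreated value by a wide margin. SLC25A45 rose by 0.70 (SE 0.09, edgeR adjusted p = 6.34e-05), and by 0.64 to 0.76 when a library was left out. SLC25A35 (ENSG00000125434, chr17:8287763-8295400, minus strand, 5 exons) measured 8.20, 8.73 and 7.84 CPM and, with Y-320, 5.08, 5.17 and 5.33 CPM. Its groups were also separate, and it fell by 0.67 (SE 0.09, edgeR adjusted p = 0.000137). RANGRF, which lies within the span of SLC25A35 on the other strand and holds 24.9% of its words, was at 9.99 ± 0.84 and 9.93 ± 0.09 CPM and did not pass. SLC25A43 rose by 0.17 (SE 0.06, edgeR adjusted p = 0.0312), a call lost with DESeq2 and without some libraries. SLC25A53 and SLC25A34 did not pass. SLC25A34, with 11.7 to 29.0 counts in a library, had a log2 fold change of -0.52 with a standard error of 0.35.

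A ratio of related carriers within a library does not depend on how libraries are scaled. Of 15 pairs listed, 12 had both genes tested, and in 8 of these the ratios of the treated and untreated libraries did not overlap. No ratios of unrelated genes were taken for comparison, and the groups of single genes did not overlap for 59.2% of all genes tested. With 3 libraries against 3, the 2-sided exact permutation test cannot go below p = 0.1, and these 8 pairs reached that value (adjusted p = 0.15 over the 12 pairs, exact permutation test). The ratio of SLC25A24 to SLC25A25 differed most, by -0.70 log2 units, followed by SLC25A14 to SLC25A30 at 0.62 and MTCH1 to MTCH2 at 0.44. The log2 ratio of SLC25A28 to SLC25A37 was 0.37 higher with Y-320, that of SLC25A39 to SLC25A40 0.29 higher and that of SLC25A24 to SLC25A23 0.18 higher. SLC25A5 was lower against SLC25A6 by 0.17 and against SLC25A4 by 0.16. The paralogues SLC25A39 and SLC25A40, and MTCH1 and MTCH2, were the 2 pairs past the threshold in opposite directions. Each rested on a call lost with DESeq2, SLC25A40 (DESeq2 adjusted p = 0.0690) and MTCH1 (DESeq2 adjusted p = 0.0743). Over all single genes tested, 26.2% were higher and 25.4% lower. The ratio of SLC25A12 to SLC25A13 differed by -0.05 and that of SLC25A33 to SLC25A36 by 0.03, with overlapping groups. Groups also overlapped for SLC25A22 to SLC25A18, at a difference of 0.29, and for SLC25A34 to SLC25A35, at 0.19.

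**Figure D4:**
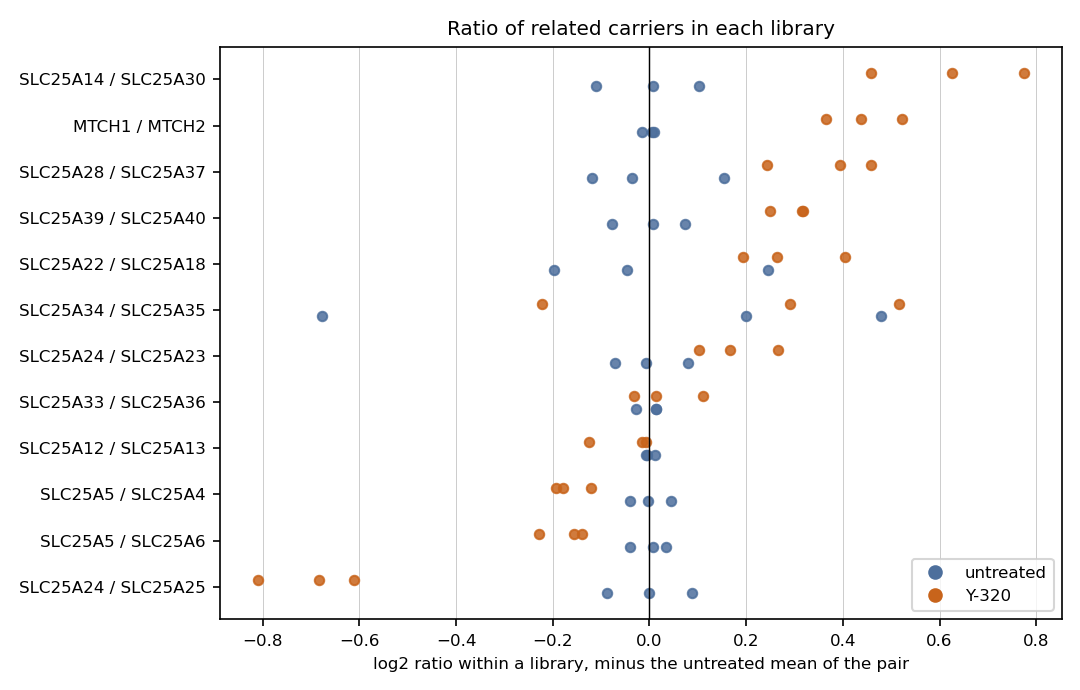
Log2 ratio of 2 related carriers in each library, with the untreated mean of the pair subtracted. Blue points are untreated and orange points Y-320 libraries, for the 12 pairs with both genes tested. In 8 pairs the colours do not overlap, and SLC25A24 to SLC25A25 and SLC25A14 to SLC25A30 lie farthest from 0.

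Some members lie next to each other in the genome. SLC25A5 and SLC25A43 are 13943 bases apart on chromosome X, and the first fell while the second rose. UCP2 and UCP3 are 17433 bases apart on chromosome 11, SLC25A23 and SLC25A41 2299 bases apart on chromosome 19, and SLC25A29 and SLC25A47 16791 bases apart on chromosome 14, in each case a tested gene beside one too low to test.

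The motifs shown in the printed windows were searched on both strands in all RefSeq promoter windows, together with TGATGNAA, an element bound by ATF4 with C/EBP factors, and CCGGAAG, an ETS motif. None of the 5 contains another. Of the members, 45 had at least 1 window, among them some too low to test, such as SLC25A31, while the shares over all genes are of tested genes only. A gene was counted when any of its windows held the motif. CACGTG was found for 11 members (24.4%), beside 12.4% of the 11456 tested genes with a window. It was found for 7 of the 13 higher members with a window, MTCH1, SLC25A22, SLC25A33, SLC25A36, SLC25A38, SLC25A46 and SLC25A51, and for 2 of the 11 lower ones, MTCH2 and SLC25A13. Over all genes it was present for 13.5% of the higher and 11.9% of the lower ones. Among the higher members named, the calls of MTCH1, SLC25A22 and SLC25A33 were lost with DESeq2 and without some libraries. TGACGTCA was found for SLC25A25, SLC25A33 and SLC25A36, which is 6.67% of the members beside 3.62% of genes, and all 3 were higher with Y-320. Over all genes this motif was present for 4.58% of the higher and 2.91% of the lower ones. CCGGAAG was found for 12 members (26.7%, beside 21.0%), of which 6 were higher and 1 lower, and over all genes it was present for 24.5% of the higher and 16.7% of the lower ones. The NRF1 motif was found for 5 members (11.1%, beside 12.4%), and TGATGNAA for SLC25A11 alone, beside 2.79% of genes. A match is a description of the letters in the window.

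Genes that work beside the carriers were described from 4 lists. The import machinery delivers carriers, which have no cleaved presequence, through the TOM complex of the outer membrane and the small TIM chaperones to the TIM22 complex. Of its 16 genes, all tested, 3 were higher and 4 lower (43.8% called, beside 51.5% of all genes), with a median log2 fold change of 0.04. TOMM6 rose by 0.29, and AGK, TIMM8B and TIMM13 fell by 0.30, 0.28 and 0.24, though the groups of AGK overlapped. TIMM22, the channel itself, did not pass, at 9.68 ± 0.23 and 9.97 ± 0.20 CPM.

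Of 21 other mitochondrial transporters 6 were higher and 5 lower (52.4% called, beside 51.5% of all genes), with a median of -0.03. MPC1, a subunit of the mitochondrial pyruvate carrier, moved further than any SLC25 member. It measured 16.8, 15.9 and 16.9 CPM and, with Y-320, 47.5, 47.0 and 46.6 CPM. The groups did not approach each other, and the log2 fold change was 1.51 (SE 0.04, edgeR adjusted p = 2.11e-09). Its partner MPC2, at 30.8 ± 0.76 and 30.1 ± 1.14 CPM, did not pass. MCU, the pore of the mitochondrial calcium uniporter, fell by 0.47 from 55.8 ± 2.73 to 40.3 ± 0.35 CPM. SFXN3, a sideroflexin, rose by 0.45, and LETM1, a cation exchanger, fell by 0.35.

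The enzymes that work with the carriers in the malate-aspartate, citrate and glycerol phosphate shuttles were mostly lower. Of 9 tested, 7 fell (77.8%, beside 25.4% of all genes), with a median log2 fold change of -0.22, and 2 passed against a fold of 1.2 (glmTreat). Of the others, GOT1 and MDH2 did not pass, and GPD1, at no more than 0.361 CPM, was not tested. IDH1, the cytosolic isocitrate dehydrogenase, measured 123.4, 127.1 and 130.6 CPM and, with Y-320, 64.2, 62.8 and 63.9 CPM. The treated level was about a factor of 2 under the untreated one, a change of -0.997 (SE 0.03, edgeR adjusted p = 4.00e-09). ACLY, which cleaves the citrate exported by SLC25A1, fell by 0.36, ACO1 by 0.31 and CS, which makes citrate in the matrix, by 0.29.

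Of 10 regulators of mitochondrial biogenesis 3 were higher and 2 lower (50% called, beside 51.5% of all genes), with a median of -0.06. TFAM, which packages mitochondrial DNA and is needed for its transcription, fell by 0.48 from 66.7 ± 2.93 to 47.7 ± 3.31 CPM, and GABPA, a factor that binds the ETS motif searched above, fell by 0.35. PPRC1, a coactivator of the PGC-1 family, rose by 0.46 from 46.0 ± 2.64 to 63.3 ± 0.78 CPM, and POLRMT, the mitochondrial RNA polymerase, by 0.25.

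**Figure D5:**
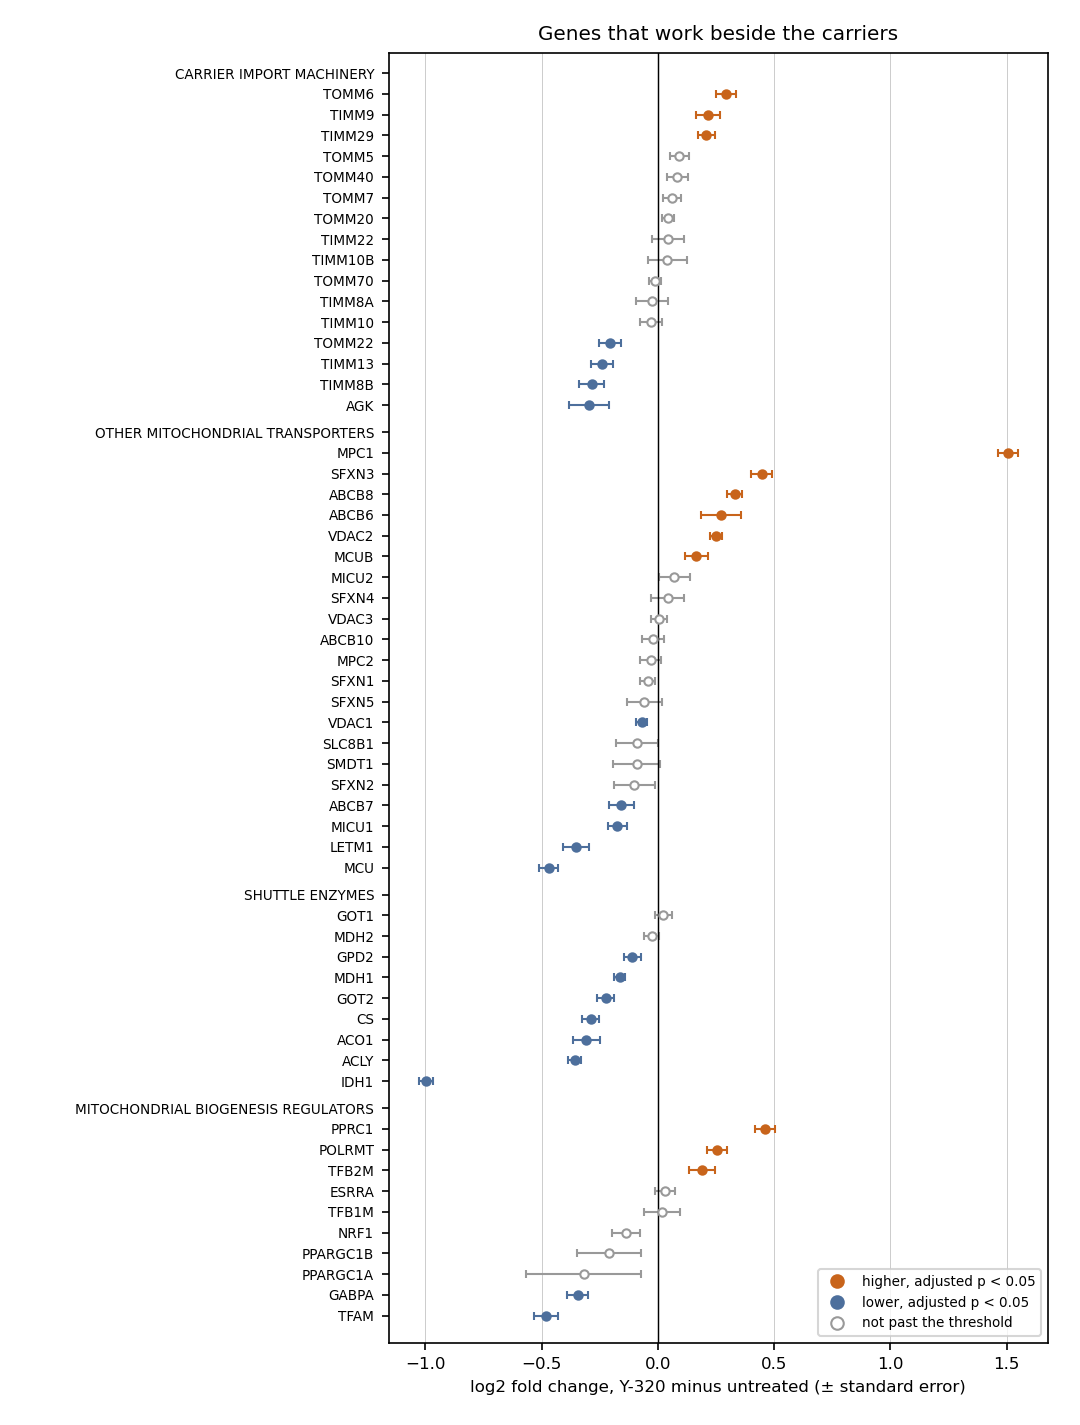
Log2 fold change, Y-320 minus untreated, of the tested genes of the 4 other lists, with the standard error as a bar. Filled orange points were higher and filled blue points lower at an adjusted p under 0.05, and open grey points did not pass. MPC1 lies at 1.51 and IDH1 at -0.997, and the other genes between -0.48 and 0.46.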

How the data were processed

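RNA from 3 untreated and 3 Y-320-treated samples of HDQ-P1 cells was sequenced on an Illumina instrument. The authors deposited estimated counts per Ensembl gene, not normalized, made on hg38 with kallisto 0.46.1 according to the submitters' processing notes. The pipelines that the study combined for its own calls are not given in the sources used here. The deposited estimated counts were rounded to whole numbers. Symbols were found for 35390 of 40295 rows, with positions and transcripts from GENCODE 44 (hg38).

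edgeR 4.0.16 in R 4.3.3 was fitted on the whole table (filterByExpr with a minimum of 10 counts and 15 in total, TMM, quasi-likelihood test, Benjamini-Hochberg adjustment, threshold 0.05). No block was used, since the labels do not say that a replicate number marks a shared culture or day. The common dispersion was 0.00104, so small changes pass the test. Ratios were tested by 2-sided exact permutation. Words of 31 bases shared with other genes were counted in transcripts. DESeq2 1.42.0, limma 3.58.1 (voom), other filters, scalings and thresholds, and each library left out were alternatives. Plots were made with Python 3.11.15 and matplotlib 3.10.9.

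Members were named in full when past the threshold with separate groups and a change of at least 0.5 log2 units. Also named were the highest member per length of each role, both genes of a pair called in opposite directions or differing by at least 0.5, members too low to test, and of each other list at most 4 genes past the threshold and those too low to test. TIMM22, MPC2, GOT1, MDH2 and further members by role are given outside this rule and after their values were seen. The members and lists were chosen with earlier results of these data known. Promoter sequences came from the RefSeq table, which has no entry for SLC25A2, SLC25A16, SLC25A30, SLC25A32, SLC25A35, SLC25A37 and SLC25A41, among others. Counts cover all members, but the values of a few genes are not reported here.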

Additional observations from a re-analysis of the deposited data

How the results depend on the processing

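No member changed direction between calls under any alternative. limma-voom, unrounded counts and a stricter filter (10 or more counts in each library) kept all 29 calls, library size scaling kept 27, and no filter and upper-quartile scaling kept 25 each. DESeq2 kept 20, with 9 members higher in place of 15, and an adjusted p under 0.01 in edgeR also left 9 higher. Among the calls lost with DESeq2 were SLC25A15, SLC25A17, SLC25A20, SLC25A22, SLC25A33, SLC25A40, SLC25A43 and MTCH1. glmTreat against a fold of 1.2 left 3 members higher and 4 lower. When libraries were left out in turn, 10 to 13 members were higher and 12 to 14 lower. Of the other lists, the import machinery had 0 calls with glmTreat, beside 8 genes at an unadjusted p under 0.05 in edgeR's test and 6 calls with DESeq2. The other transporters had 11 calls, 7 with DESeq2, 4 with glmTreat, 7 at an adjusted p under 0.01, and 7 to 10 without a library, the lowest without Y-320 replicate 2. The shuttle enzymes and the biogenesis regulators each had 2 calls with glmTreat. The summed level of the family differed by -0.05 log2 units, by -0.038 with library size scaling and by -0.080 with upper-quartile scaling. Upper-quartile scaling shifted the median of all genes by -0.03 and put 45.2% of calls on the higher side, in place of 50.7%. The cause of these differences was not tested, except that a minimum fold or a stricter threshold leaves fewer calls by construction.

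The labels do not say whether a replicate number marks a shared culture or day. Over all genes tested, the deviations of same-numbered libraries from their group means correlated at -0.018, 0.0075 and 0.00098. Such a correlation over all genes cannot exclude a pairing that acts on a part of them. With the replicate block 27 of 29 calls were kept, SLC25A17 and MTCH1 (adjusted p = 0.0526, edgeR) being lost, and all genes gave 4285 higher and 4159 lower calls in place of 4336 and 4210. The fits that leave 2 libraries in a group rest on a spread pooled over both groups. Members under about 10 counts could not be tested at this depth.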

Other observations

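Rows named as pseudogenes of the family numbered 43. Of these, 6 had enough counts to be tested and 3 passed, where 51.5% of all genes tested passed. The summed level of all 43 was 10.6 ± 0.80 CPM without and 11.5 ± 1.36 CPM with Y-320 (SD, n = 3). SLC25A1P5, a single-exon pseudogene of the citrate carrier at chr19:27805423-27806205 on the minus strand (hg38), had 26, 28 and 24 counts in untreated libraries and 82, 61 and 87 counts with Y-320. Its log2 fold change was 1.51 (SE 0.19, edgeR adjusted p = 8.76e-05), larger than that of any member, and it ran from 1.41 to 1.64 when a library was left out. SLC25A1 itself fell by 0.13 on the log2 scale. SLC25A5P1 had 21.7, 12.9 and 15 counts without and 10.3, 3.0 and 7.0 counts in treated libraries, giving a log2 fold change of -1.35 (edgeR adjusted p = 0.0194). SLC25A24P2 had 13.6, 16.3 and 17.7 counts without and 9.6, 7.5 and 7.2 counts in treated libraries, giving a log2 fold change of -0.97 (edgeR adjusted p = 0.0226). Both of these calls were lost without some libraries, with 3 and 2 of the 6 fits keeping them. Estimated counts of pseudogenes depend on how reads shared with the parent gene were split.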
